A study of Mus musculus with 8 samples.

Results

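The genes described here encode the aminoacyl-tRNA synthetases, 20 that work in the cytosol and 16 that work in mitochondria. A gene was taken where the platform annotation mapped a probe set to its symbol alone, or to the newer symbol ending in 1, and its brightest probe set on average was used. Of the 36 genes listed, 34 were measured among 19505 genes tested, 18 of the 20 cytosolic and all 16 mitochondrial enzymes. Mars was found under the symbol Mars1. Aars and Dars were not analysed here. Both groups were bone marrow stem cells of mice aged 6 to 10 weeks; the labels give neither strain nor sex, and name no genetic change. The cells were sorted as lineage-negative, Sca-1- and c-Kit-positive cells with CD150 and without CD48, the surface profile of mouse hematopoietic stem cells. Both groups were cultured in Myelocult medium with stem cell factor and the antibiotic Primocin for 16 h. The cells of 4 arrays had eltrombopag at 10 µg/ml, and those of the other 4 had sterile water, the vehicle. The drug is taken by mouth to raise platelet numbers, activates the human thrombopoietin receptor and binds iron. Arrays are numbered 1 to 4 in each group and called biological replicates, but the labels do not say whether separate animals gave the cells. The p-values therefore reflect only how far these samples spread, which may be technical.

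An aminoacyl-tRNA synthetase joins 1 kind of amino acid to its tRNA, the step that gives the genetic code its meaning at the ribosome. Mammalian cells keep a cytosolic and a mitochondrial set, both encoded in the nucleus, and several cytosolic enzymes sit together in a multi-synthetase complex. When a tRNA stays uncharged, the kinase GCN2 phosphorylates eIF2 and the transcription factor ATF4 is translated. ATF4 raises genes of amino acid supply and many cytosolic synthetase genes. In blood stem cells, protein synthesis is kept low in comparison with progenitors.

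The values are log2 expression values on an array scale, which show differences between arrays for the same probe set but not which of several genes is more abundant. Cytosolic members had log2 values from 7.95 to 11.62 over the 8 arrays and mitochondrial members from 5.84 to 9.53. No member lay below the lower quartile of all genes in any array. Of the stem cell markers Kit, Mecom, Hlf and Fgd5, each lay above the array median in 8 of 8 arrays, Slamf1 in 6 and Procr in 5. Among markers of other cells, Cd48, Itgam and Mpo lay below the median in every array, Cd3e lay below the lower quartile in 6 of 8 arrays, and Cd34, Flt3 and Elane lay above the median in 8 of 8. The first principal component, with 25.5% of the variance, gave the arrays numbered 1 and 2 scores from -18.81 to -11.02 and those numbered 3 and 4 scores from 13.96 to 15.57, in both groups alike. Uty, a Y-linked gene, read 7.71 and 6.98 on the log2 scale in the vehicle and eltrombopag arrays numbered 3, while the remaining 6 arrays read 3.02 to 3.31. Kdm5d, also Y-linked, read 7.081 and 6.359 in the arrays numbered 3 and 3.366 to 3.805 in the remaining 6. Signal of male cells was thus seen in both arrays numbered 3 alone, so their cells had an animal source that the remaining arrays did not share. Counts of calls, variance shares and correlations across numbers are also given without both arrays numbered 3.

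Between the treatments no synthetase gene passed, and the differences were small. By limma with Benjamini-Hochberg adjustment over all genes, 0 of 34 members were called, with an adjusted p of 0.99978 or above for each, and 0 of 19505 genes were called (0%). At an unadjusted p under 0.05 there were 0 members in either direction, where 3.33% of all genes lay under that threshold (1.74% higher and 1.59% lower with the drug). With another variance model in limma it was 1 member, and 615 of 19505 genes. It was also 1 member without eltrombopag array 4 (685 genes) and with numbers 1 and 2 only (650 genes). The 4 eltrombopag values lay apart from the 4 vehicle values in 0 members, against 2.12% of all genes (1.12% higher and 1% lower). For 34 of 34 members the 95% interval lay inside a 2-fold change (98.7% of all genes), and for 31 of 34 it lay inside a 1.5-fold change (88% of all genes). The 3 exceptions were Cars, Yars and Nars2, whose intervals in fold terms ran from 0.625 to 1.90, from 0.603 to 1.29 and from 0.644 to 1.40. The standard errors (SE) and intervals of treatment differences come from the fit without the replicate number, so they include variation between numbers. With the number in the fit, the SEs of Cars, Yars and Nars2 were 0.175, 0.101 and 0.195, against 0.363, 0.249 and 0.252. For Cars2 the SE was larger, 0.197 against 0.174.

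**Figure D1:**
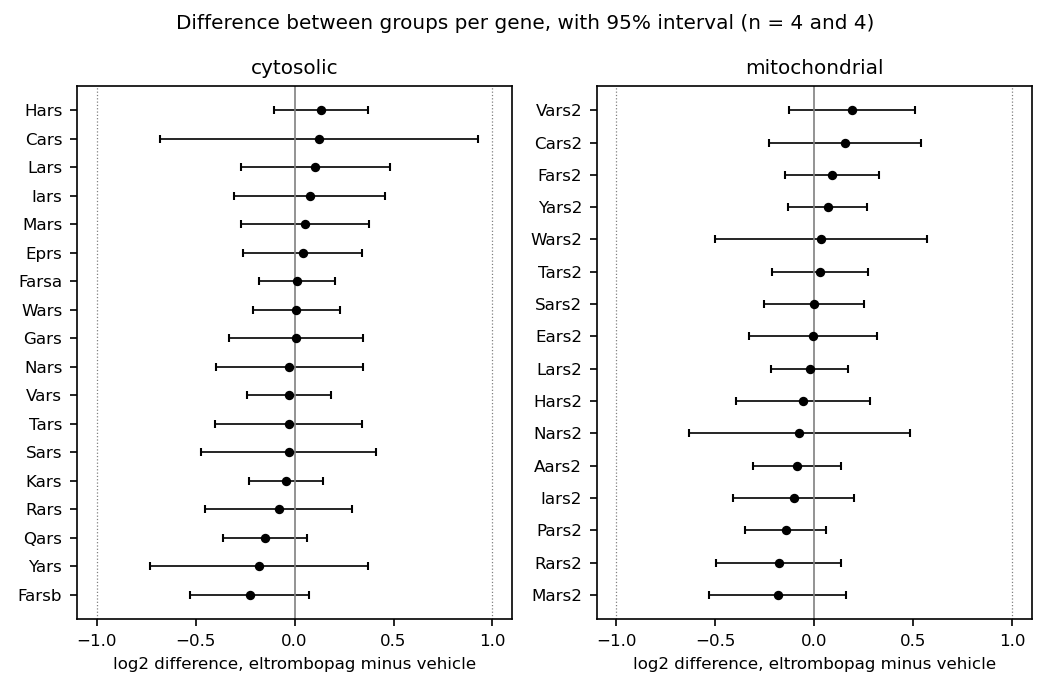
Each point is the log2 difference of 1 synthetase gene, eltrombopag minus vehicle, with its 95% interval from limma (4 arrays against 4), cytosolic enzymes on the left and mitochondrial enzymes on the right; dotted lines mark 2-fold. All 34 intervals cover 0 and stay inside the dotted lines. The replicate number is not in the fit.

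Differences within each compartment lay on both sides of 0. Of the 18 cytosolic members 9 were higher and 9 lower with eltrombopag, and their log2 differences ran from -0.23 to 0.13 (median -0.0094). Of the 16 mitochondrial members 6 were higher and 10 lower, with a median of -0.014 and a range from -0.18 to 0.19. Over all genes tested, 52.3% were higher and the median was 0.0071. The sign of the cytosolic median was not stable. It was 0.0152 with array weights. With 1 array left out it lay between -0.06975 (without eltrombopag array 2) and 0.07514 (without vehicle array 2). The fits with 1 array left out hold no replicate number. Dropping 1 array leaves its number in 1 group alone, so differences between numbers enter these medians. The median size of the difference, without its sign, was 0.048 for cytosolic members, 0.081 for mitochondrial members and 0.083 for all genes. In the 12 cases where the same amino acid has a measured enzyme in each compartment, the drug differences of the 2 enzymes had the same sign in 5.

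Farsb, the beta subunit of the cytosolic phenylalanine enzyme, had the lowest difference of the cytosolic set. Its log2 values were 8.95, 9.38, 9.31 and 9.00 in vehicle arrays 1 to 4 and 9.08, 9.10, 8.85 and 8.71 in eltrombopag arrays 1 to 4. Numbers 2 to 4 were lower with the drug and number 1 was higher, the groups overlapped, and the log2 difference was -0.23 (SE 0.14). Farsa, the alpha subunit of the same enzyme, differed by 0.013 (SE 0.087). Hars, the cytosolic histidine enzyme, stood at the other end. Its log2 values were 9.23, 8.90, 9.10 and 9.09 with vehicle and 9.37, 9.22, 9.20 and 9.06 with eltrombopag, a difference of 0.13 (SE 0.11). Numbers 1 to 3 were higher with the drug and number 4 lower, and vehicle array 1 lay above 3 of the 4 eltrombopag arrays. In the RefSeq annotation of assembly GRCm38.p6, Hars lies next to Hars2, which encodes the mitochondrial histidine enzyme. Hars2 had log2 values of 7.55, 7.21, 7.56 and 7.57 with vehicle and 7.16, 7.32, 7.85 and 7.34 with eltrombopag. Its difference was -0.055 (SE 0.15), and vehicle array 2 stood below the other vehicle arrays.

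In the mitochondrial set, Vars2, the valine enzyme, had the highest difference. Its log2 values were 8.97, 9.31, 8.89 and 9.07 with vehicle and 9.41, 9.53, 9.08 and 8.99 with eltrombopag, a difference of 0.19 (SE 0.14). Eltrombopag arrays 1 and 2 were above every vehicle array, and arrays 3 and 4 were not. Cars2, the cysteine enzyme, had 7.603, 8.06, 8.45 and 8.24 with vehicle and 8.50, 8.26, 8.06 and 8.16 with eltrombopag. Its difference of 0.16 (SE 0.17) came with a difference of 0.90 within number 1 and of -0.39 within number 3. Mars2, the methionine enzyme, had 8.90, 9.22, 9.36 and 9.14 with vehicle and 8.94, 8.63, 8.96 and 9.36 with eltrombopag, a difference of -0.18 (SE 0.16). It was lower in numbers 2 and 3 and higher in numbers 1 and 4. Rars2, the arginine enzyme, had 8.005, 7.89, 7.75 and 8.17 with vehicle and 7.90, 7.91, 7.39 and 7.90 with eltrombopag. Its difference was -0.18 (SE 0.14), with the groups overlapping. One array stood far from the other 3 of its group in Hars2 with vehicle and in Rars2 with eltrombopag, where 5.38% of all genes had such an array with vehicle and 5.25% with eltrombopag.

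The mitochondrial members not described singly, Aars2, Ears2, Fars2, Lars2, Sars2, Tars2, Wars2 and Yars2, had differences from -0.086 (Aars2) to 0.089 (Fars2).

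In 3 members the difference had the same sign in all 4 numbers, and each was lower with eltrombopag, where 5.87% of all genes were lower in 4 of 4 numbers and 6.73% higher. For Pars2, the mitochondrial proline enzyme, the differences within numbers 1 to 4 were -0.09, -0.22, -0.11 and -0.16, and for Iars2, the mitochondrial isoleucine enzyme, -0.07, -0.04, -0.02 and -0.29. Nars, the cytosolic asparagine enzyme, had differences of -0.05, -0.01, -0.02 and -0.03. With the replicate number as a block, the adjusted p in limma was 0.984 or above for each member.

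**Figure D2:**
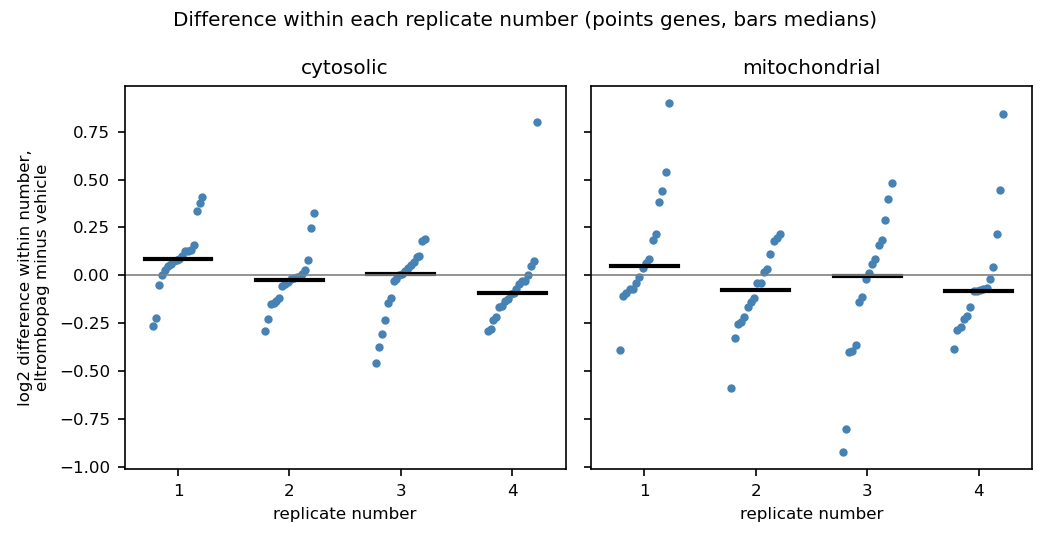
Each point is the log2 difference of 1 synthetase gene between the eltrombopag and the vehicle array of the same replicate number, with a bar at the median of the 18 cytosolic (left) or 16 mitochondrial (right) members. The cytosolic medians are 0.085, -0.026, 0.0060 and -0.094 for numbers 1 to 4, on both sides of 0.

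Taken number by number, most cytosolic members were higher with the drug in number 1 and most lower in numbers 2 and 4. In number 1, 15 of 18 cytosolic and 9 of 16 mitochondrial members were higher with eltrombopag, with medians of 0.085 and 0.051. Number 4 went the other way, with 4 of 18 and 4 of 16 higher and medians of -0.094 and -0.079. In number 2 the medians were -0.026 and -0.079, and in number 3 they were 0.0060 and -0.0044. The cytosolic minus the mitochondrial median was 0.034, 0.053, 0.010 and -0.015 in numbers 1 to 4, where the medians of all genes lay between -0.0022 and 0.017.

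Cytosolic synthetase transcripts had most of their variance between replicate numbers and little between treatments. What a number stands for is not given in the labels; each number holds 1 vehicle and 1 eltrombopag array. The replicate number took a median of 81.3% of a cytosolic member's variance over the 8 arrays, the treatment 2.09% and the remainder 15.4%. For mitochondrial members these medians were 37.5%, 8.25% and 44.5%, and for all genes 49.8%, 6.54% and 35.3%. Over 80% of the variance lay between numbers in 10 of 18 cytosolic members, in 1 of 16 mitochondrial members and in 12.7% of all genes. Number 2 had the highest mean of the 4 numbers in 15 of 18 cytosolic members, in 4 of 16 mitochondrial members and in 22.2% of all genes. Without both arrays numbered 3, the median share between numbers was 80% for cytosolic members, 35.5% for mitochondrial members and 47.4% for all genes. Over 80% of the variance then lay between numbers in 9 of 18 cytosolic members, 3 of 16 mitochondrial members and 15.1% of all genes. Number 2 was then still highest in 15 of 18 cytosolic members, in 6 of 16 mitochondrial members and in 5731 of 19505 genes. Whether the cytosolic set differs from the mitochondrial set in this respect was not tested.

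**Figure D3:**
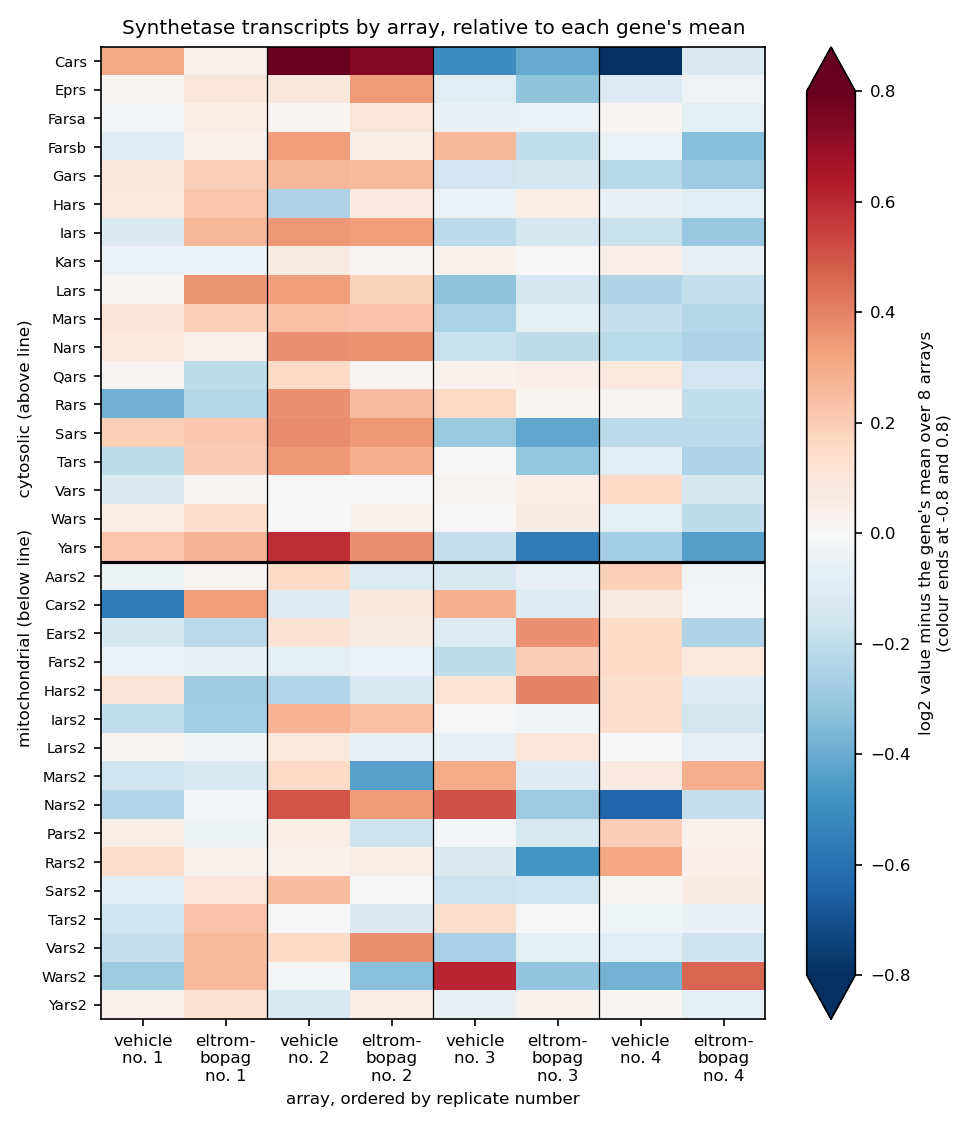
Colours show each gene's log2 value in each array minus the gene's mean over the 8 arrays, with arrays in order of replicate number and vehicle beside eltrombopag, cytosolic enzymes above the line and mitochondrial enzymes below. Cytosolic rows are mostly above their mean in both arrays of number 2 and below it in both arrays of number 4; mitochondrial rows show no such common block.

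Comparing the numbers in turn, both arrays of number 2 lay above both arrays of number 4 in 14 of 18 cytosolic members and the reverse held in 0. Among mitochondrial members the counts were 3 and 2 of 16, and over all genes 18.9% and 21.8%. The cytosolic median of number 2 minus number 4 was 0.42 and of number 2 minus number 3 was 0.40 on the log2 scale. For number 1 minus number 3 it was 0.20, for number 1 minus number 4 it was 0.23, for number 1 minus number 2 it was -0.16 and for number 3 minus number 4 it was 0.042. The mitochondrial medians of the same 6 comparisons lay between -0.090 and 0.0041, and those of all genes between -0.018 and 0.025. In single arrays, 18 of 18 cytosolic members were above their own mean in eltrombopag array 2, 16 in vehicle array 2, 5 in vehicle array 4 and 0 in eltrombopag array 4.

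In limma's F test across the 4 numbers with treatment in the fit, 0 of 34 members passed over all genes, where 0.21% of all genes passed. At an unadjusted p under 0.05 there were 9 of 18 cytosolic and 1 of 16 mitochondrial members, where 10.2% of all genes lay under that threshold. When limma's variances were set to follow the expression level and to resist outliers, 6 cytosolic members passed (Nars, Yars, Gars, Mars, Cars and Sars, with adjusted p between 0.00414 and 0.0469), 0 mitochondrial members did, and 1.02% of all genes passed. Over all genes the call count fell from 41 to 2 without both arrays numbered 3, and to between 3 and 17 when 1 array was left out. Without both arrays numbered 3, 8 cytosolic and 2 mitochondrial members lay under an unadjusted p of 0.05, and 10.2% of all genes did. The cytosolic count was 4 without vehicle array 2 and 5 without eltrombopag array 2, where 7.4% and 7.83% of all genes lay under that threshold. It was 6 without vehicle array 3 and 7 without eltrombopag array 3, with 9.2% and 8.91% of all genes. It was also 6 without eltrombopag array 4 (9.91% of all genes), and between 8 and 10 without any 1 of the remaining arrays (8.75% to 10% of all genes).

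Yars, the cytosolic tyrosine enzyme, had the smallest p across numbers among the members. Its log2 values were 10.20, 10.57, 9.80 and 9.70 in vehicle arrays 1 to 4 and 10.25, 10.35, 9.42 and 9.54 in eltrombopag arrays 1 to 4. Numbers 1 and 2 were above numbers 3 and 4 in either group, and the adjusted p across numbers in limma was 0.162. The difference between treatments was -0.18 (SE 0.25). Sars, the cytosolic serine enzyme, showed the same division. It had 9.29, 9.48, 8.80 and 8.89 with vehicle and 9.32, 9.45, 8.69 and 8.90 with eltrombopag, with an adjusted p across numbers of 0.208 in limma. Cars, the cytosolic cysteine enzyme, had the widest range of all members, 1.79 on the log2 scale. Its values were 9.17, 9.74, 8.37 and 7.95 with vehicle and 8.90, 9.60, 8.47 and 8.75 with eltrombopag, with an adjusted p across numbers of 0.263 in limma. Here too numbers 1 and 2 exceeded numbers 3 and 4, and the difference between treatments was 0.13 (SE 0.36).

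Gars and Kars each supply both compartments from 1 gene, for glycine and for lysine. Gars followed the numbers, with log2 values of 11.27, 11.45, 11.03 and 10.96 with vehicle and 11.37, 11.44, 11.05 and 10.90 with eltrombopag, and 97.8% of its variance lay between numbers. Kars was nearly level, with 11.50, 11.62, 11.58 and 11.59 with vehicle and 11.50, 11.57, 11.55 and 11.49 with eltrombopag, a range of 0.129. Nars had 99.6% of its variance between numbers, with means of 11.12, 11.42, 10.86 and 10.82 for numbers 1 to 4. Mars had means of 11.24, 11.33, 10.93 and 10.89. Not every cytosolic enzyme shared the division. Rars, the arginine enzyme, was lowest in number 1, with means of 8.18, 8.79, 8.57 and 8.40. Vars, the valine enzyme, had 14.2% of its variance between numbers, and its means ran from 11.06 to 11.14. Qars, the glutamine enzyme, had 36.4% between numbers and 44.8% between treatments, with a treatment difference of -0.15 (SE 0.095).

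Enzymes inside and outside the multi-synthetase complex had similar shares of variance between numbers, and so had both structural classes. The 7 measured enzymes of the complex (Eprs, Iars, Lars, Mars, Qars, Kars and Rars) had a median of 82.2% of variance between numbers, and the 11 other cytosolic enzymes 80.3%. Members of class I, whose catalytic domain has a Rossmann fold, had 66.1% over 18 genes, and those of class II 60.6% over 15 genes, each class holding enzymes of both compartments; Eprs, which joins a domain of each class, was left out of both. The scaffold proteins of the complex were Aimp1 (81.7%), Aimp2 (60.7%) and Eef1e1 (44.4%).

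The mitochondrial members with the smallest p across numbers were Iars2, Rars2 and Nars2. Iars2 had log2 values of 8.86, 9.34, 9.06 and 9.20 with vehicle and 8.79, 9.30, 9.04 and 8.91 with eltrombopag. Number 2 was highest and number 1 lowest in both groups, and the adjusted p across numbers was 0.469 in limma. Nars2, the asparagine enzyme, had 7.34, 8.08, 8.09 and 6.95 with vehicle and 7.56, 7.92, 7.29 and 7.39 with eltrombopag, with an adjusted p of 0.542 in limma. The 2 arrays of number 3 lay 0.80 apart. For Rars2, whose values are given above, the adjusted p was 0.492 in limma, and number 3 was lowest in both groups. Vars2, the mitochondrial member with the highest correlation with the asparagine synthetase gene Asns, had number means of 9.19, 9.42, 8.99 and 9.03.

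Cytosolic members also varied together from array to array. With each group's mean removed, the median Pearson correlation over the 8 arrays was 0.502 among the 153 pairs of cytosolic members, and 88.9% of pairs were positive. It was 0.0207 among the 120 pairs of mitochondrial members, 0.0455 between the sets, and -0.0120 between members and all other genes. Without both arrays numbered 3 the medians were 0.674 among cytosolic and 0.127 among mitochondrial members, over 6 arrays. These arrays share numbers, and with them any difference in how a number was handled, so the correlations are descriptions.

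Most genes of the response to uncharged tRNA and amino acid shortage also had most of their variance between numbers. Of 12 such genes listed, 10 were measured, and the number took a median of 96.3% of their variance. The share exceeded 80% in 8 of the 10. The exceptions were Eif2ak4, the gene of GCN2, with 30.5%, and Impact, with 52.0%. Eif2ak4 was highest in number 3 and Impact in number 4. By limma's F test with adjustment over all genes, 5 of 10 were called across numbers (Asns, Chac1, Phgdh, Psat1 and Ddit3, with adjusted p between 0.00658 and 0.0489), against 0.21% of all genes. With variances set to follow the expression level and to resist outliers, 8 of 10 were called, Atf4, Trib3 and Sesn2 added, against 1.02% of all genes. With quantile normalization 4 of 10 were called, and with equal medians 6. Leaving out 1 array at a time, where between 3 and 17 of all genes were called, between 0 and 2 of the 5 first named passed. It was 0 without vehicle array 3, without eltrombopag array 3 and without both, when the number still took a median of 96.1% of the variance of the 10 genes. Asns, the asparagine synthetase, had log2 values of 11.06, 10.88, 9.16 and 9.53 with vehicle and 10.89, 10.83, 9.13 and 9.38 with eltrombopag. Atf4 had 11.95, 11.87, 11.37 and 11.28 with vehicle and 11.81, 11.81, 11.30 and 11.19 with eltrombopag, with an adjusted p across numbers of 0.203 in limma. Numbers 1 and 2 lay above numbers 3 and 4 for both genes. Between treatments Asns differed by -0.099 (SE 0.51) and Atf4 by -0.089 (SE 0.20), and 0 of the 10 genes passed. These SEs include the variation between numbers. Within numbers 1 to 4 Atf4 differed by -0.13, -0.06, -0.07 and -0.09. Of the 10 genes 2 were higher and 8 lower with eltrombopag, where 52.3% of all genes were higher. Asns, Atf4 and Psat1 were lower in 4 of 4 numbers, as were 5.87% of all genes. Whether the list differs from all genes was not tested.

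**Figure D4:**
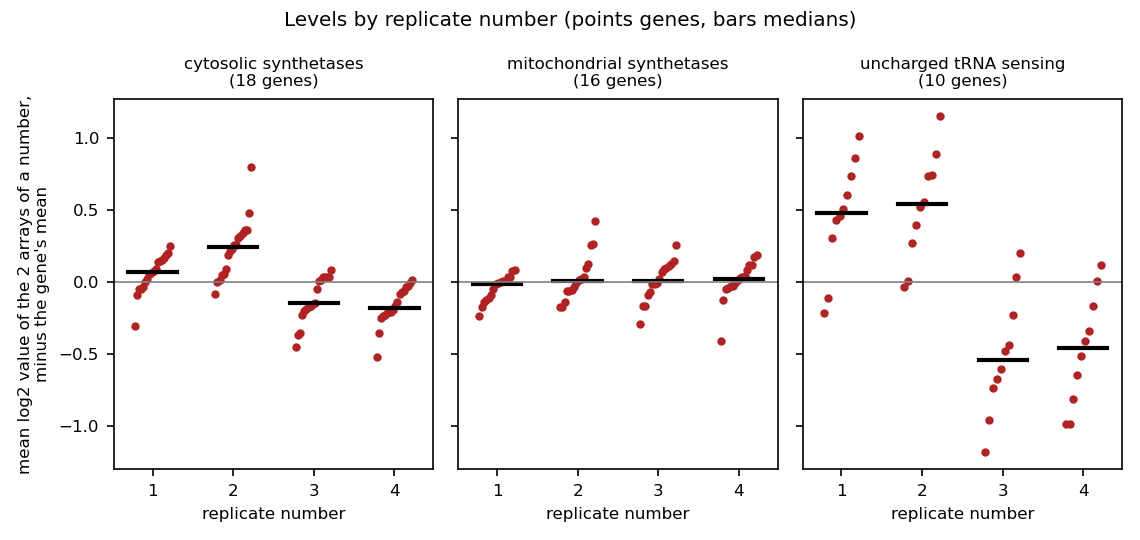
Each point is a gene's mean log2 value over the 2 arrays of a replicate number minus the gene's own mean, with a bar at the median, for the 18 cytosolic members, the 16 mitochondrial members and the 10 genes of uncharged tRNA sensing. The medians of numbers 1 and 2 lie above 0 and those of numbers 3 and 4 below 0 in the first and last panel, while the mitochondrial medians stay near 0. In the last panel Eif2ak4 and Impact do not share this division.

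The correlation with Asns over the 8 arrays, group means removed, had a median of 0.758 over cytosolic members, -0.0744 over mitochondrial members and 0.0095 over all genes. It exceeded 0.7 in 10 of 18 cytosolic members, 1 of 16 mitochondrial members (Vars2, 0.748) and 7.48% of all genes. The highest were Sars (0.961), Mars (0.933), Yars (0.928), Gars (0.903) and Lars (0.902), and the lowest cytosolic value was that of Vars (-0.317). Without both arrays numbered 3 the cytosolic median was 0.758 and the mitochondrial median -0.125, with 10 of 18 and 0 of 16 members and 12.2% of all genes over 0.7. As before, these are descriptions over arrays that share numbers. The summed level of the 6 measured stem cell markers, on the linear scale, ran from 11250 to 11960 in the arrays numbered 1 and 2 and from 12660 to 13140 in those numbered 3 and 4. Bright genes dominate that sum: Kit gave 58.2% to 65.5% of it and Hlf 20.1% to 26.8%. Hlf had log2 values from 11.19 to 11.33 in numbers 1 and 2 and from 11.61 to 11.78 in numbers 3 and 4, whereas the ranges of Kit, Mecom, Slamf1, Procr and Fgd5 overlapped. The sum of 7 measured markers of other cells, 77.2% to 82.9% of it Cd34, ran from 4271 to 4958 in numbers 1 and 2 and from 4711 to 5224 in numbers 3 and 4. Cd34 had log2 values from 11.71 to 11.92 and from 11.93 to 12.03, and the ranges of the other 6 overlapped. Their part in the division by number was not tested. In bulk samples, fewer cells of a type and less RNA per cell cannot be told apart.

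The letters TGATGNAA, the composite element that ATF4 binds with a C/EBP partner, were searched on both strands from 250 bases before to 50 bases after each gene's start in RefSeq, build GRCm38.p6. Entries existed for 11 of 18 cytosolic members (not Cars, Hars, Lars, Nars, Rars, Vars and Wars) and 14 of 16 mitochondrial members (not Hars2 and Pars2). The letters were in 4 of 11 cytosolic promoters, Gars, Iars, Tars and Yars, in 0 of 14 mitochondrial promoters, and in 4.51% of all genes with an entry. Among the genes of uncharged tRNA sensing they were in 3 of 9, Asns, Trib3 and Chac1. A match describes the letters only. The sites of all 4 cytosolic members with a match are shown, with that of Asns beside them. Each line gives 30 bases on the gene's own strand with the match in capitals, read as TGATGNAA for Yars and Asns and as its reverse complement for Gars, Iars and Tars.
Gars (chr6:55037960-55037989, plus strand, first matched base at -30 from the start): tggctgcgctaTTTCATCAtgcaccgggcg
Iars (chr13:49682126-49682155, plus strand, at 8): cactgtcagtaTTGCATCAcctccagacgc
Tars (chr15:11399655-11399684, minus strand, at -15): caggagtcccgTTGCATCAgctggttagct
Yars (chr4:129189895-129189924, plus strand, at 4): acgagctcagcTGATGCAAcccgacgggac
Asns (chr6:7693214-7693243, minus strand, at -23): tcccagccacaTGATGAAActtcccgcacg

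Of these 4 synthetases, Iars, the isoleucine enzyme, had log2 values of 9.50, 9.96, 9.40 and 9.44 with vehicle and 9.88, 9.95, 9.47 and 9.31 with eltrombopag. Tars, the threonine enzyme, had 8.76, 9.31, 8.96 and 8.88 with vehicle and 9.17, 9.26, 8.66 and 8.72 with eltrombopag. Both genes were highest in number 2 in either group, and vehicle array 1 of Tars was below vehicle arrays 3 and 4. The 7 cytosolic members with an entry and no match were Sars, Mars, Eprs, Farsa, Farsb, Qars and Kars, whose correlations with Asns were 0.961, 0.933, 0.770, 0.747, 0.342, -0.0646 and -0.0903. Those of the 4 with a match were 0.928 for Yars, 0.903 for Gars, 0.794 for Iars and 0.627 for Tars, so values with and without a match overlapped. Other motifs were searched in the same windows on both strands. The NRF1 element (GCGC, any base, TGCGC) was in 3 of 11 cytosolic promoters (Farsb, Kars and Tars), 2 of 14 mitochondrial promoters (Iars2 and Mars2) and 5.19% of all genes. The E-box CACGTG was in 3 of 11 (Farsb, Iars and Tars), 1 of 14 (Ears2) and 8.09%. The ETS element CCGGAAGT was in 2 of 11 (Farsa and Mars), 1 of 14 (Rars2) and 4.31%. No match of one motif overlapped a match of another in these promoters.

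Neighbouring steps of tRNA use gave no call between treatments either, with 0 genes passing in each list. Of 4 genes of the mitochondrial route to glutaminyl-tRNA and formylated initiator tRNA, 2 were higher, with Gatb at 0.20 (SE 0.17), Gatc at -0.13 (SE 0.11) and Qrsl1 at -0.12 (SE 0.12). Of 7 scaffold, accessory and synthetase-like proteins 6 were higher, with a median of 0.043. Aimp1 and Aimp2 differed by 0.043 and 0.020, Eef1e1 by 0.078 and Prorsd1 by 0.083. Tarsl2, which is itself like a threonine enzyme, differed by 0.12. Of 5 cytosolic elongation factors 2 were higher, among them Eef1b2 (0.15), while Eef2 differed by -0.078. Of 14 genes of mitochondrial translation and tRNA processing 6 were higher, with Guf1 at 0.22 (SE 0.11), Mrrf at -0.16 and Tufm at -0.015. Not all of these encode translation factors. The tRNA-modifying enzymes Trmu, Mto1 and Gtpbp3 differed by 0.15, 0.024 and 0.067, and the RNase P subunit Prorp by -0.20. Of 21 genes of tRNA maturation 13 were higher, with a median of 0.059. Rpp25, a subunit of RNase P and RNase MRP, had the smallest p among them, at 5.01 ± 0.24 on the log2 scale in the vehicle arrays and 5.37 ± 0.091 in the eltrombopag arrays (SD, n = 4 each). It was dim, with 4.78 and 4.86 in vehicle arrays 1 and 3, below the lower quartiles of all genes there, 5.106 and 5.034. Elac1, a tRNA 3′-end nuclease, stood at 8.71 ± 0.11 and 8.44 ± 0.13 (SD, n = 4 each). Their differences of 0.36 (SE 0.13) and -0.28 (SE 0.10) had an adjusted p of 0.99978 in limma.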

How the data were processed

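Arrays of mouse stem cells, 4 with vehicle and 4 with eltrombopag, were made from about 10 ng of RNA with a 3′ in vitro transcription kit, per the labels' protocols. The deposited values are log2 expression values, made by the authors with RMA, oligo and limma as named in the submitters' processing notes; versions and the genome build behind the probe sets are not given in the sources used here. RMA normalizes between arrays, so differences in total RNA per sample are not seen. The value table held 22206 probe sets, 19572 of them named with 1 symbol, 0 with several and 2634 unnamed here, giving 19505 genes. All members had 1 probe set. Signal over background was not used here, and the number of arrays limits precision.

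Tests ran in limma 3.58.1 under R 4.3.3 (lmFit and eBayes, two-sided, group as the only term), with Benjamini-Hochberg adjustment over all genes and calls at adjusted p under 0.05. A second fit added the replicate number and gave its F test. Groups and numbers came from the titles. Deviations from group means correlated between 0.142 and 0.294 for arrays of the same number and between -0.208 and 0.171 for others. From these data, not from the labels, numbers were taken to pair arrays. For number 4 this is less sure. Its 2 arrays correlated at 0.142, below vehicle array 4 with eltrombopag array 3 (0.171) and vehicle array 3 with eltrombopag array 4 (0.168). Alternatives were the replicate block, a filter on dim genes, quantile normalization, equal medians, array weights, another variance model, mean probe sets, no group term, and leaving out arrays. Members, lists and motifs were chosen with earlier results of these data known. Any member could be named, with values by array for those at either end of the differences, for Gars, Kars, Hars and Hars2 and for the 3 smallest p across numbers in each set, and per list set genes and the 2 smallest p. Values by array for Iars and Tars, which hold the motif, and number means of other members were added after their values were seen. The fits were tested on simulated data. Among the marker lists, the 2 smallest p were those of Procr (0.22) and Hlf (-0.10) for stem cells, and Mpo (0.29) and Cd48 (0.25) for other cells, as log2 differences of deposited values that did not pass; Psat1 (-0.21) and Impact (-0.062) were those of uncharged tRNA sensing.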

Additional observations from a re-analysis of the deposited data

Results flagged for a closer look

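Each member's 4 values per group were searched for 1 value with a wide gap to the rest, over 68 sets of 4. There were 2 such values, where chance gives about 3.4 (about 1 in 20). For Hars2, vehicle array 2 read 7.213 on the log2 scale and the remaining vehicle arrays 7.549 to 7.573, a gap of 0.933 of the range. For Rars2, eltrombopag array 3 read 7.386 and the remaining eltrombopag arrays 7.895 to 7.91, a gap of 0.971 of the range.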

How the results depend on the processing

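Between treatments 0 genes and 0 members were called under each of the 18 alternatives. With the replicate number as a block, 904 genes had an unadjusted p under 0.05 against 650, the smallest adjusted p of a member was 0.9843 in limma, and the block changed no call. Settings with only numbers 1 and 2, only numbers 3 and 4, or without both arrays numbered 3 were chosen after seeing the data. The cytosolic minus the mitochondrial median, 0.004529, was 0.04991 with array weights, 0.05014 without both arrays numbered 3, 0.07815 with numbers 1 and 2 only and between -0.05403 and 0.07369 with 1 array left out. The cytosolic median lay between -0.06975 and 0.07514 and the mitochondrial median between -0.04131 and 0.03257 with 1 array left out. Across numbers, trend and robust variances called 198 genes and 6 members, against 41 and 0. Cytosolic members at an unadjusted p under 0.05 numbered 9, and between 4 and 10 with 1 array left out. The share of all genes was 10.2%, and between 7.4% and 10% with 1 array left out. The genes called across numbers were 2 without both arrays numbered 3 and between 3 and 17 with 1 array left out. The cause was not tested, except that leaving out arrays leaves fewer samples. For treatment differences, the fits with 1 array left out hold no replicate number. The number of the dropped array is then in 1 group alone, so differences between numbers enter the result. Nars, Asns, Atf4 and Psat1 turned sign there, though each was lower with eltrombopag within every number. Of 34 members, 13 kept the sign of their difference in every alternative and 21 turned in at least 1. These log2 differences turned sign: with numbers 1 and 2 only, Cars (-0.1995), Rars (0.01902), Tars (0.1755), Vars (0.06765), Nars2 (0.02682), Aimp1 (-0.04731), Tufm (0.03638), Tarsl2 (-0.01485), Prorsd1 (-0.03653) and Eef2 (0.003157). With numbers 3 and 4 only they were Eprs (-0.07923), Farsa (-0.04273), Gars (-0.02497), Iars (-0.02784), Wars (-0.03787), Cars2 (-0.2368), Ears2 (0.04721), Hars2 (0.02982), Lars2 (0.04431), Sars2 (0.02779), Tars2 (-0.07728), Wars2 (-0.03771), Eef1e1 (-0.1155) and Procr (-0.1993). With equal medians they were Gars (-0.0019) and Wars (-0.001544). With array weights they were Nars (0.0114), Sars (0.01992), Sars2 (1.414e-06), Tars2 (-0.006018), Wars2 (-0.05239) and Asns (0.07436). Without both arrays numbered 3 they were Tars (0.06312), Wars (-0.007616), Fars2 (-0.01482), Nars2 (0.1658), Tufm (0.0166) and Tarsl2 (-0.02965). With quantile normalization they were Sars2 (5.715e-05). With 1 array left out, the lowest and highest log2 differences of those that turned were Cars (-0.1607 to 0.4353), Eprs (-0.06501 to 0.1558), Farsa (-0.01728 to 0.04024), Gars (-0.07449 to 0.1056), Iars (-0.02071 to 0.2053), Mars (-0.02365 to 0.1396), Nars (-0.1504 to 0.09067), Rars (-0.2223 to 0.02857), Sars (-0.15 to 0.1036), Tars (-0.1312 to 0.08235), Vars (-0.06923 to 0.01949), Wars (-0.03467 to 0.07749), Cars2 (-0.006587 to 0.2767), Ears2 (-0.1283 to 0.07441), Hars2 (-0.1976 to 0.03145), Lars2 (-0.05952 to 0.0003364), Nars2 (-0.2996 to 0.08185), Sars2 (-0.0584 to 0.08096), Tars2 (-0.0429 to 0.07907), Wars2 (-0.1156 to 0.2417), Aimp1 (-0.04318 to 0.1407), Aimp2 (-0.02895 to 0.07561), Eef1e1 (-0.007302 to 0.2684), Tufm (-0.04951 to 0.01092), Atf4 (-0.2012 to 0.02501), Asns (-0.4328 to 0.2093), Prorsd1 (-0.03665 to 0.1575) and Psat1 (-0.4667 to 0.02774). The 4 arrays a group limit the precision, and signal over background was not analysed here.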
